A study of Mus musculus with 5 samples.

Results

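The 10 genes described here encode the killing machinery and killer receptors of lymphocytes. They comprise the granzymes Gzma, Gzmb and Gzmc, the pore-forming protein perforin (Prf1), the granule proteins Nkg7 and Ctsw, the cytokine interferon gamma (Ifng), and the receptors Ncr1, Klrb1c and Klre1. They were chosen by name, with earlier results of these data known, and are 10 of the 42254 gene names in the data. Shares called among them are therefore not those of an independently chosen set. Each was followed in 2 classes of lymphocyte and in every library. CD3-positive cells held at least 2 unique molecular identifiers (UMIs, each a counted transcript molecule) of Cd3d, Cd3e and Cd3g together, and numbered 436 of 15958 cells. CD3-negative lymphocytes held none of these 3 transcripts, and at least 3 UMIs from at least 2 of 11 other lymphoid genes, such as Lck and Il2rb. The lymphoid sum also had to exceed that of each other lineage's panel. They numbered 54. None of the 10 genes was used to sort a cell into a class.

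PyMT mice, which develop breast tumours driven by a viral oncogene (polyoma middle T) in the mammary gland, were the source of the cells. Digested tumours were run on 2 single-cell platforms, 10x Genomics Chromium 3' v2, which captures cells in droplets, and BD Rhapsody with its whole transcriptome assay, which captures them in microwells (a Drop-seq arm was not analysed here). The libraries called fresh 10x 1 and fresh 10x 2 are fresh samples on 10x, and stored 10x is a digest on the same platform that was held overnight at 4 °C, titled 24 h; per the labels such digests were processed once viability was at least 20% lower. BD 1 is a fresh sample on BD Rhapsody. The title of BD 2 calls it fresh, but the names of its files say 24 h, so BD 2 formed a separate group with no storage state. All tumours carry the PyMT transgene and no normal tissue or other genotype was compared. The labels do not say whether the libraries came from separate animals, so the p-values below measure the spread between these libraries, which may be technical.

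Cytotoxic lymphocytes kill by releasing granules onto a target cell. Perforin opens the target's membrane, and granzymes, which are serine proteases, enter and trigger cell death. Natural killer (NK) cells and other innate lymphoid cells carry activating receptors such as NKp46, the product of Ncr1, and killer cell lectin-like receptors, whereas cytotoxic T cells recognise their targets through the CD3-linked T cell receptor and the CD8 co-receptor. In T cells of the gamma delta lineage the receptor includes the Trdc product.

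The promoters of 4 genes described at length below, Gzma, Gzmb, Gzmc and Ncr1, are printed, though Gzma did not pass the class test. Each is the 250 bases before the RefSeq transcription start in GRCm38.p6, written 5′ to 3′ on the gene's strand. Capitals mark matches on either strand to the core of the Runx motif, TGTGGT, which reads ACCACA on the other strand. The Gzma window lies at chr13:113100982-113101231 on the minus strand, Gzmb at chr14:56262335-56262584 on the minus strand, Gzmc at chr14:56234658-56234907 on the minus strand and Ncr1 at chr7:4337474-4337723 on the plus strand.
Gzma: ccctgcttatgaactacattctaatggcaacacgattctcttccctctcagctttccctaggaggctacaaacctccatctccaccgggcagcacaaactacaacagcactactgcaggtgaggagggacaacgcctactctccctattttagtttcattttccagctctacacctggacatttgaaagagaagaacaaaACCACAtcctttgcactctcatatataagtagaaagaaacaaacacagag
Gzmb: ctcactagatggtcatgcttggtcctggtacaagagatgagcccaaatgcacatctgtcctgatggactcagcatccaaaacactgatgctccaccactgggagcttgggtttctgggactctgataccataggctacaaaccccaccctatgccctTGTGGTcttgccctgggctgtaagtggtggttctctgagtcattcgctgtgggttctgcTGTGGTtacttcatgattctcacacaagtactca
Gzmc: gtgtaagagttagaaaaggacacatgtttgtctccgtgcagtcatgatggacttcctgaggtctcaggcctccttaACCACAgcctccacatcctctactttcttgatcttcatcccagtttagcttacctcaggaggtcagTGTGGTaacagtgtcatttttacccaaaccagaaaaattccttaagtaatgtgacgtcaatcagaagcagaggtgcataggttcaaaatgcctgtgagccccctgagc
Ncr1: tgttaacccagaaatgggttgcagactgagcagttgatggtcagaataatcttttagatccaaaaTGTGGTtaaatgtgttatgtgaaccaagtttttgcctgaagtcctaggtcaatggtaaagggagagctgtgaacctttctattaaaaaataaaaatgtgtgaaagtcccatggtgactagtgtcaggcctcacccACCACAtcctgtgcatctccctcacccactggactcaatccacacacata

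RefSeq held a promoter for 9 of the 10 genes. The Runx core was found in 8 of these 9, and in 14.05% of all 32851 promoters of the same length. The T-box core GGTGTGA, searched on both strands and bound by factors of the T-bet and eomesodermin family, was found in 1 of the 9, Nkg7, and in 3.33% of all promoters. In Nkg7 the matches to the 2 motifs do not overlap. A match describes the letters of the window and is not a measured binding site. In the GENCODE annotation of GRCm38, all 10 genes are protein-coding. Gzmb spans chr14:56258838-56262260 and Gzmc chr14:56231441-56234656, in a cluster of related granzymes on chromosome 14, and Klrb1c and Klre1 lie on chromosome 6 within the killer lectin receptor region. Reads of Gzmc can be shared with its close relatives Gzmd, Gzme, Gzmf and Gzmg, and those of Klrb1c with Klrb1a, Klrb1b and Klrb1f, so these levels are less certain than those of single-copy genes.

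The libraries held 29166129 to 59957945 UMIs. CD3-positive cells numbered 74, 32, 99, 96 and 135 and CD3-negative lymphocytes 12, 10, 12, 8 and 12 in fresh 10x 1, fresh 10x 2, stored 10x, BD 1 and BD 2, the order in which all values per library are given below. The median depth was 2527 to 6196.5 UMIs in CD3-positive and 2650.5 to 4526.5 UMIs in CD3-negative cells. No B cell marker of 4 had a UMI in CD3-negative cells. Of 10 T cell markers that the gates did not use, between 3 and 7 were at 0 there in each library. Cd8b1 was at 0 in all 5, while 53 of the 54 cells held a Trac, Trbc1 or Trbc2 transcript and 3 held Trac. Summed, the 10 T cell markers stood at 7.56 to 19.5 UMIs per 10000 in CD3-negative and 20.7 to 37.2 in CD3-positive cells. The classes were nearest in fresh 10x 2, at 19.5 and 20.7. The 7 NK markers summed to 20.2 to 43.6 UMIs per 10000 in CD3-negative and 15.7 to 29.4 in CD3-positive cells, so they were not absent from the latter. Of the CD3-positive cells, 56 had more UMIs of another lineage's panel than of the lymphoid panel, and these held 31.0% of the class's UMIs. Summed myeloid markers in CD3-positive cells ranged from 0.424 to 35.1 UMIs per 10000 between libraries and fell to between 0.285 and 1.82 without those 56 cells. Barcodes shared between libraries numbered 1, 1 and 5 among the pairs on 10x and 24 between BD 1 and BD 2.

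The question was in which lymphocytes each gene lies, and whether CD3-negative and CD3-positive cells differ. Levels are UMIs per 10000 UMIs of the class. CD3-negative lymphocytes were higher for the receptors Ncr1, Klrb1c and Klre1 and for the granzyme Gzmc, by 2.88 to 3.58 on the log2 scale. CD3-positive cells were higher for Gzmb, by 1.97 on the log2 scale. That call passed in 14 of 18 alternatives and kept its sign in all of them. It was lost, among others, when a Cd3e transcript was required and in the 10x libraries alone. Gzma, Prf1, Nkg7, Ctsw and Ifng did not pass the test. All 10 genes passed the filter on low counts, and 5 of 10 were called at an adjusted p below 0.05 (edgeR's quasi-likelihood test, with the library as a block), beside 138 of 3059 genes, or 4.51%. In the direction of higher in CD3-negative cells these were 4 of the 10, beside 1.24% of all genes, and in the other direction 1 of 10, beside 3.27%. The median log2 difference was 1.61 over the 10 genes and -0.06 over all genes tested.

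**Figure D1:**
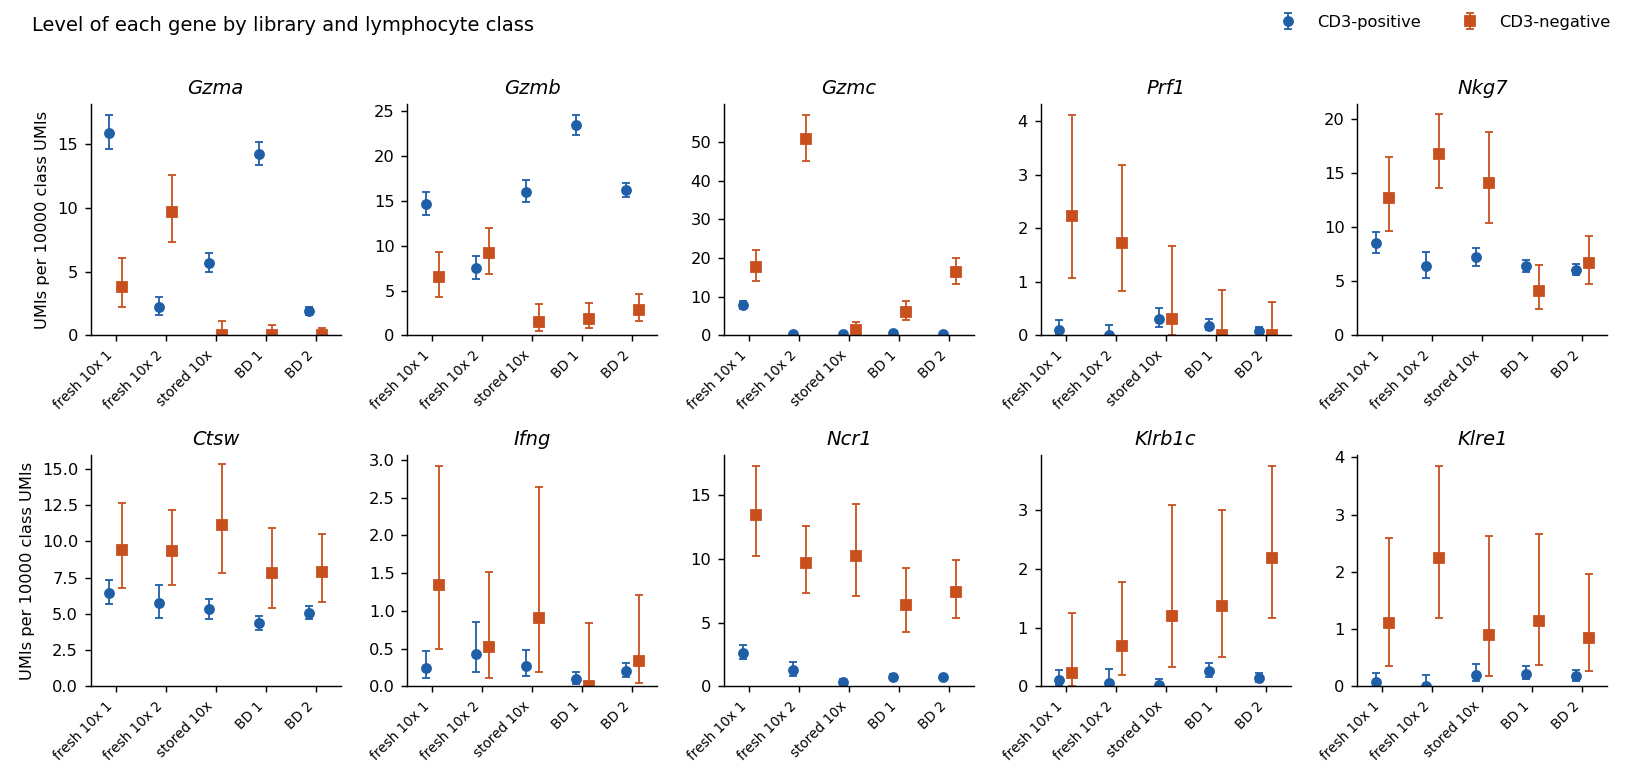
Level of each of the 10 genes in UMIs per 10000 UMIs of the class (vertical axis, scaled per gene) in the 5 libraries (horizontal axis), for CD3-positive cells (circles) and CD3-negative lymphocytes (squares); bars are 95% Poisson intervals, which cover counting error only. Ncr1 is higher in CD3-negative cells in all 5 libraries, while Gzma and Gzmb vary widely between libraries.

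Granzyme B (Gzmb), the protease best known for starting apoptosis in target cells, stood in CD3-positive cells at 14.6, 7.45, 16.0, 23.4 and 16.2 UMIs per 10000. In CD3-negative cells it stood at 6.47, 9.16, 1.503, 1.83 and 2.86. It was lower in CD3-negative cells in 4 of 5 libraries and higher in fresh 10x 2, so the classes overlapped. The class difference was -1.97 on the log2 scale (SE 0.38, n = 5 libraries, edgeR adjusted p = 0.00304). Pooled over libraries, the share of cells with a Gzmb UMI was nearly the same in the 2 classes, at 28.0% of CD3-positive and 27.8% of CD3-negative cells. The mean over the 5 libraries was 28.1% (SD 2.87) and 27.5% (SD 18.1), so the CD3-negative share varied widely. It was at most 0.692% in epithelial-gated cells of any library, whose median depth was higher. With CD3-positive cells limited to those with a Cd3e transcript, an alternative added after the data were seen, the difference was -1.202 (adjusted p = 0.0851). The call was also lost in the 10x libraries alone (-1.21, adjusted p = 0.231).

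Granzyme A (Gzma) is a trypsin-like granzyme that is abundant in killer cells. Its level in CD3-positive cells was 15.9, 2.21, 5.66, 14.2 and 1.91, a range that spanned the libraries of both platforms. In CD3-negative cells it was 3.79 and 9.68 in the fresh 10x libraries, and no UMI was found in the other 3, where 3 counts would be 0.902, 0.687 and 0.504 UMIs per 10000. Only fresh 10x 2 was higher in CD3-negative cells. The difference of -2.02 (SE 0.72, edgeR adjusted p = 0.155, n = 5 libraries) did not pass the test. It passed in 4 of 18 alternatives. These were without fresh 10x 2 (-3.76, adjusted p = 1.17e-06) and with low-count genes kept in (-2.34, adjusted p = 1.38e-09). The others were without its top cell in each class of each library (-1.89, adjusted p = 0.0185), which takes a larger share of the CD3-negative cells, and on BD Rhapsody alone, where the CD3-negative count was 0. In the 10x libraries alone it was -0.80 (adjusted p = 0.832), and its sign turned when a Cd3e transcript was required (1.45, adjusted p = 0.603).

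Granzyme C (Gzmc), a granzyme of the chromosome 14 cluster, showed the reverse pattern. It stood at 17.6, 50.7, 1.503, 6.18 and 16.5 UMIs per 10000 in CD3-negative cells and at 7.81, 0.432, 0.324, 0.738 and 0.462 in CD3-positive cells. It was higher in CD3-negative cells in 5 of 5 libraries, though the stored 10x level in CD3-negative cells lay below the fresh 10x 1 level in CD3-positive cells. The difference was 3.58 (SE 0.56, edgeR adjusted p = 0.000391, n = 5 libraries). A share of 31.5% of CD3-negative and 9.17% of CD3-positive cells held a UMI, against at most 0.429% of epithelial-gated cells in any library. In the 10x libraries alone the adjusted p was 0.0506, with a difference of 3.08.

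Perforin (Prf1) was sparse, with 68 UMIs in all cells of the series. In CD3-positive cells it stood at 0.111, 0, 0.301, 0.178 and 0.0839, and in CD3-negative cells at 2.23, 1.73, 0.301, 0 and 0. It was higher in CD3-negative cells in fresh 10x 1 and fresh 10x 2, nearly equal in stored 10x, and on BD Rhapsody it had no UMI in CD3-negative cells. The difference of 2.14 (SE 0.88) did not pass the test (edgeR adjusted p = 0.263, n = 5 libraries).

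Nkg7, a granule membrane protein needed for efficient degranulation, was found in most lymphocytes of both classes. Its levels were 8.56, 6.42, 7.24, 6.41 and 6.07 in CD3-positive cells and 12.7, 16.8, 14.1, 4.12 and 6.72 in CD3-negative cells. CD3-negative cells were higher in 4 of 5 libraries and lower in BD 1. The difference was 0.42 (SE 0.23) and did not pass the test (edgeR adjusted p = 0.502, n = 5 libraries). With CD3-positive cells limited to those led by the lymphoid panel, their levels ran from 8.25 to 12.49. The CD3-negative levels lay above this range on 10x and below it in BD 1 and BD 2. A UMI was present in 57.6% of CD3-positive and 77.8% of CD3-negative cells, or 39.2% and 53.6% with each cell thinned to 1000 UMIs.

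Ctsw, a papain-like cysteine protease made mainly by cytotoxic lymphocytes, was at 6.45, 5.78, 5.32, 4.36 and 5.07 in CD3-positive cells. In CD3-negative cells it was at 9.37, 9.34, 11.1, 7.78 and 7.90. These levels did not overlap over the 5 libraries. With CD3-positive cells limited to those led by the lymphoid panel, they ran from 5.75 to 9.51 in CD3-positive cells and the classes overlapped. The difference was 0.64 (SE 0.19), just short of the threshold (edgeR adjusted p = 0.0624, n = 5 libraries), past it in DESeq2 (adjusted p = 0.0301) and far from it with lymphoid-led cells (0.28, adjusted p = 0.619). A UMI was present in 61.7% of CD3-positive and 79.6% of CD3-negative cells, against at most 1.72% of epithelial-gated cells in any library.

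Interferon gamma (Ifng), the cytokine that activates macrophages and raises antigen presentation, had 83 UMIs in all cells. It ran from 0.0957 to 0.432 in CD3-positive cells and from 0 to 1.34 in CD3-negative cells, where the 0 was BD 1. CD3-negative cells were higher in 4 of 5 libraries, and the difference of 1.07 (SE 0.66) did not pass the test (edgeR adjusted p = 0.578, n = 5 libraries).

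Ncr1, the gene of NKp46, an activating receptor of NK cells and some innate lymphoid cells, gave the clearest separation. Its level was 13.4, 9.68, 10.2, 6.41 and 7.40 in CD3-negative cells and 2.63, 1.30, 0.347, 0.765 and 0.724 in CD3-positive cells. The lowest CD3-negative level was above the highest CD3-positive level. The difference was 3.11 (SE 0.28, edgeR adjusted p = 4.14e-07, n = 5 libraries) and stayed past the threshold under all 18 alternatives, between 2.82 and 3.65. A UMI was found in 75.9% of CD3-negative and 13.5% of CD3-positive cells, and in 52.3% and 6.75% at 1000 UMIs a cell. All 59 CD3-positive cells with Ncr1 held a Trbc1 or Trbc2 transcript, 31 held Trdc and 23 held Trac. Among all 436 CD3-positive cells, 417 held Trac, Trbc1 or Trbc2, so the Trbc count does not set these cells apart, and 113 held Trdc.

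The lectin-like receptors were sparser. Klrb1c, which encodes the NK1.1 antigen of NK cells, was at 0.223, 0.692, 1.203, 1.37 and 2.19 in CD3-negative cells and at 0.111, 0.0540, 0.0231, 0.260 and 0.136 in CD3-positive cells. It was higher in CD3-negative cells in 5 of 5 libraries, with a difference of 3.18 (SE 0.64, edgeR adjusted p = 0.00382), which was lost without BD 2 (adjusted p = 0.114). Klre1, a receptor that pairs with other lectin-like proteins on NK cells, was at 1.12, 2.25, 0.902, 1.14 and 0.841 in CD3-negative cells and at 0.0831, 0, 0.208, 0.219 and 0.178 in CD3-positive cells. The classes did not overlap, and the difference was 2.88 (SE 0.60, edgeR adjusted p = 0.00526, n = 5 libraries). In BD Rhapsody alone the Klre1 call was lost (2.18, adjusted p = 0.388).

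**Figure D2:**
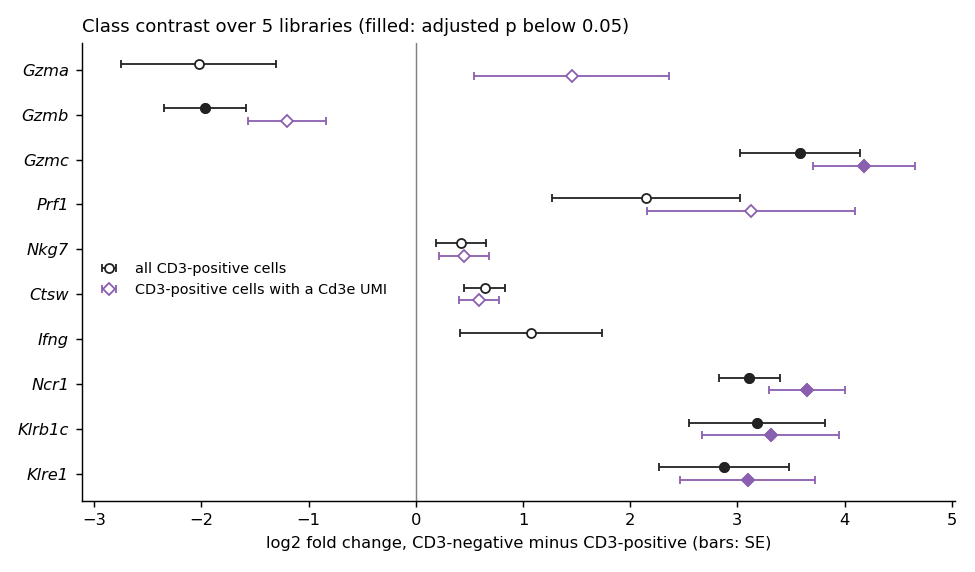
Log2 difference in level, CD3-negative minus CD3-positive (horizontal axis), for each gene over 5 libraries, with SE bars; circles use all CD3-positive cells and diamonds only those with a Cd3e transcript, and filled points passed an adjusted p of 0.05. Ncr1, Klrb1c, Klre1 and Gzmc lie on the CD3-negative side in both, while Gzma changes side. Ifng was not tested with Cd3e required.

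Whether the class difference itself differed between platforms was tested with an interaction term. It passed for 0 of the 10 genes, beside 6 of 3059 genes, or 0.196% (0.163% higher and 0.0327% lower). The lowest adjusted p was 0.207, for Gzma (edgeR). Of the 10 genes, 4 had an unadjusted p below 0.05, beside 193 of all 3059 genes. DESeq2 called 0 of 10, beside 2 of 3059. An alternative added after the data were seen left each gene's top cell out of every sum of a class in a library. That is 1 of 8 to 12 CD3-negative but 1 of 32 to 135 CD3-positive cells, so CD3-negative sums lose a larger share of their cells. The term then passed for Gzmb (-3.02, edgeR adjusted p = 0.000532), whose class difference was more negative on BD Rhapsody. It also passed for Gzma, which had no CD3-negative UMI on that platform. How far the unequal loss set these calls was not tested.

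A few cells held most of the granzyme transcripts. In each library the cell with the most Gzma held 34.8% to 64.1% of the lymphocyte Gzma UMIs. For Gzmc the top cell held 31.6% to 84.7%, and in fresh 10x 2 a single CD3-negative cell held 255 of 301 UMIs. Gzmb had a top-cell share of 19.0% to 48.7%. Nkg7 and Ctsw were spread out, with top cells at 3.72% to 11.1% and 3.77% to 14.3%. Over all libraries, 10 cells held 91.1% of the lymphocyte Gzma UMIs, 76.1% of Gzmc, 49.9% of Gzmb, 26.6% of Ncr1, 11.1% of Nkg7 and 10.5% of Ctsw. In fresh 10x 2 a single cell held 12 of the 13 Klre1 UMIs.

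**Figure D3:**
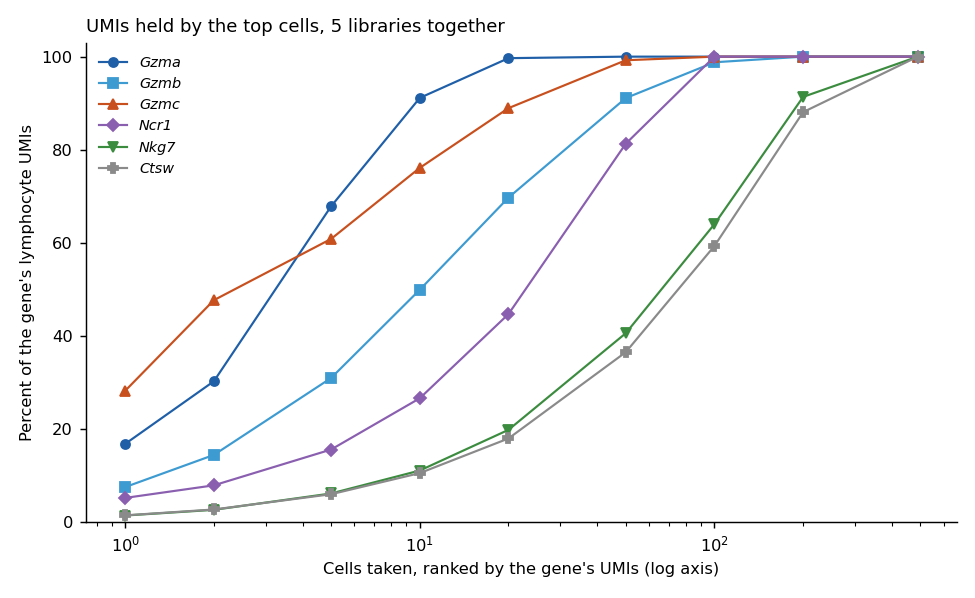
Percent of a gene's lymphocyte UMIs (vertical axis) held by the cells with the most UMIs of that gene (horizontal axis, log scale), over the 5 libraries together. At 20 cells the Gzma, Gzmc and Gzmb curves stand at 99.7%, 88.9% and 69.7%, while Nkg7 and Ctsw stand at 64.0% and 59.3% at 100 cells.

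The cells with high Gzma were described further, since they set the level of the class. These cells were picked after their values were seen, so no test is given. In all, 17 cells held at least 10 Gzma UMIs, 14 of them CD3-positive and 3 CD3-negative, and all 5 libraries had at least 1. Together they held 97.1% of all Gzma and 47.0% of all Gzmb UMIs of the series. Of the 14 CD3-positive cells, all 14 held Cd3g, with a median of 28.5 UMIs, while 3 held Cd3e, 4 held Cd3d and 5 held Trac. All 14 held Fcer1g, the signalling chain of Fc and NK receptors, 12 held Cd8a and 2 held Cd8b1, the beta chain of the CD8 heterodimer of conventional cytotoxic T cells. They thus met the CD3 rule through Cd3g. Of the same 14 cells, 1 held Ncr1 and 13 held Klrd1, a gene of the killer lectin-like receptors. The 20 cells with at least 10 Gzmc UMIs were mostly others: 5 were CD3-positive and 9 CD3-negative, 17 held Ncr1, and 2 held any Gzma.

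Cells without a Cd3e transcript numbered 82 of the 436 CD3-positive cells (28, 6, 26, 12 and 10 by library). In them Gzma stood at 36.7, 5.62, 30.5, 77.8 and 28.8 UMIs per 10000, against 0.0487, 1.14, 0, 2.45 and 0.267 in the cells with Cd3e. The cells without Cd3e were higher in all 5 libraries. This split was chosen after the values were seen and is a description. The 14 CD3-positive cells with high Gzma, of which 3 held Cd3e, held 93.8% of all Gzma UMIs. The Gzma difference thus largely restates those cells. Gzmb stood at 24.95, 6.75, 65.8, 73.1 and 86.9 without Cd3e and at 6.77, 7.67, 4.63, 14.1 and 11.8 with it, higher without Cd3e in 4 of 5 libraries and lower in fresh 10x 2. Cells without a Cd3e UMI had Trac at 1.71 and Fcer1g at 12.9 over all libraries, against 8.69 and 6.54 in cells with it. Depth and the capture of Cd3e differed between libraries, and their part in this split was not tested.

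Within CD3-positive cells, those with a Cd8a or Cd8b1 transcript were compared with the rest. Gzma, Gzmb and Nkg7 were higher in the cells with CD8 transcripts and Ncr1 was lower, which made 4 of the 7 genes tested, beside 71 of 5408 genes, or 1.31% (3 of 7 higher, beside 0.444%, and 1 of 7 lower, beside 0.869%). Prf1, Klrb1c and Klre1 did not pass the filter on low counts. The tested cells with CD8 numbered 16, 7, 37, 37 and 46, of which 1 each in fresh 10x 2, BD 1 and BD 2 also held Cd4. Levels are given for the cells with CD8 but no Cd4 transcript, 16, 6, 37, 36 and 45, a slightly smaller group than the tested one. Their Gzmb stood at 39.7, 21.9, 36.5, 46.5 and 32.9 UMIs per 10000. In every library this was above the cells with Cd4 but no CD8, those with Trdc and neither, and those with none of these. The cells without Cd3e, a split that overlaps this one, stood higher still in stored 10x, BD 1 and BD 2. Over all cells with CD8, among them a BD 1 cell that also held Cd4 and had 134 Gzmb UMIs, the difference from cells without CD8 was 3.06 (SE 0.29, edgeR adjusted p = 9.73e-05, n = 5 libraries). For Nkg7 it was 1.25 (SE 0.18, edgeR adjusted p = 0.00295), with levels of 12.7, 14.05, 11.2, 10.9 and 8.06 in the cells with CD8 but no Cd4, and it was lost without BD 1 (1.13, adjusted p = 0.0566).

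Gzma in the cells with CD8 but no Cd4 was at 58.1, 0, 13.5, 31.8 and 4.32, so it was not found in those 6 cells of fresh 10x 2. The cells with both transcripts, which the test took in, held 16 Gzma UMIs in fresh 10x 2 and 149 in BD 1. The Gzma difference over all cells with CD8 was 5.73 (SE 1.05, edgeR adjusted p = 0.0173, n = 5 libraries). It was lost without stored 10x (adjusted p = 0.0957) and without BD 1 (adjusted p = 0.215). Ncr1 was lower by 2.37 on the log2 scale in the cells with CD8 (-2.37, SE 0.31, edgeR adjusted p = 0.00173). Ctsw (0.53), Gzmc (0.26) and Ifng (-0.53) did not pass the test. With Cd3e required, Gzma (3.20, adjusted p = 0.202), Gzmb (1.71, adjusted p = 0.102) and Ncr1 (-1.52, adjusted p = 0.181) kept their sign and did not pass the test, and Nkg7 passed it (1.15, adjusted p = 0.0210).

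The 73 cells with Cd8a but no Cd8b1 held Gzmb at 60.3 and Gzma at 31.8 UMIs per 10000 over all libraries, and the 70 cells with Cd8b1 at 6.69 and 3.88. These subsets were chosen after the values were seen. The 93 cells with Trdc and neither Cd4 nor CD8 had no Gzma UMI. Their Gzmb was 8.25, 4.91, 1.48, 12.9 and 14.9, and their Ncr1 was 3.33, 3.88, 0.495, 2.97 and 2.27, above the level in CD8 cells in all 5 libraries. The 65 cells with Cd4 held 12 Gzmb, 8 Nkg7, 21 Ctsw and 2 Gzma UMIs in all, and 0 UMIs of Gzmc, Prf1, Ncr1, Klrb1c and Klre1.

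**Figure D4:**
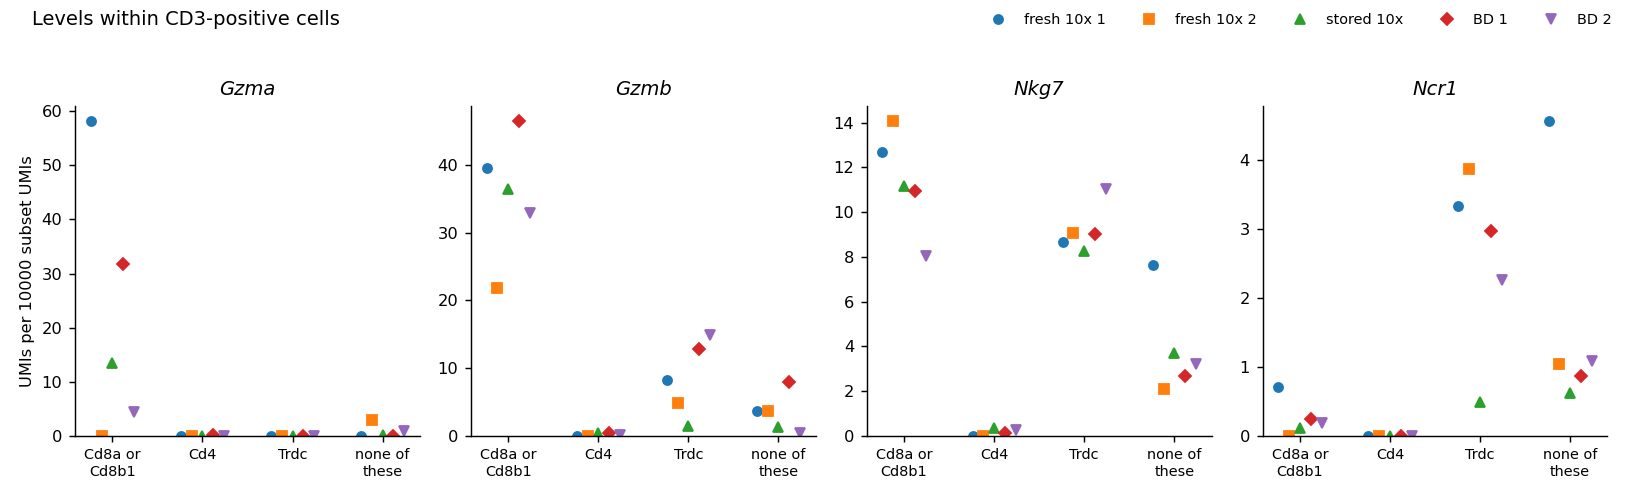
Levels of Gzma, Gzmb, Nkg7 and Ncr1 in UMIs per 10000 subset UMIs (vertical axis) in CD3-positive cells split by their transcripts (horizontal axis), one point per library and no error bars. Gzmb is highest in the cells with Cd8a or Cd8b1 in all 5 libraries, and Ncr1 is low there. The 3 cells with both Cd4 and CD8 transcripts are not drawn.

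Most transcripts of these genes lay in the lymphocytes: 80.7% of their summed UMIs were in CD3-positive and 11.1% in CD3-negative cells, with 4.27% in epithelial-gated cells. Gzma and Gzmb were at 95.03% and 95.2% in CD3-positive cells. For Ncr1, Klrb1c and Klre1 the share in CD3-positive cells was 44.7%, 44.2% and 48.4%. Gzmc had 41.6% in CD3-negative and 33.3% in CD3-positive cells, 9.11% in epithelial-gated and 9.27% in stromal-gated cells. In epithelial-gated cells the shares of Ctsw and Klrb1c were 12.01% and 9.30%. A single epithelial-gated cell of fresh 10x 2 with 45217 UMIs held 88 Gzmc, 5 Ncr1 and 5 Nkg7 UMIs. The median CD3-negative cell held transcripts of 4 of the 10 genes and the median CD3-positive cell of 2. In CD3-positive cells, 20 of the 21 cells with Gzma also held Gzmb, and 57 of the 59 with Ncr1 also held Nkg7.

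Between platforms, BD 1 was compared with the 2 fresh 10x samples, first over whole libraries. Only the fresh 10x group is replicated, so the residual spread came from its 2 samples (1 degree of freedom). The edgeR test pools that spread over all genes. The p-values of the platform and storage comparisons therefore rest mainly on the pooled spread and do not measure a gene's own spread. In CPM, UMIs scaled to a common library total, Gzmc was at 16.0 and 14.6 in the fresh 10x libraries, 0.937 with storage, 1.70 for BD 1 and 3.02 for BD 2, so the fresh 10x libraries stood above all others. BD 1 was lower by 3.31 on the log2 scale for Gzmc (-3.31, SE 0.24, edgeR adjusted p = 0.00128). Ncr1 stood at 5.90 and 4.06 in fresh 10x and 1.26, 1.52 and 2.56 in stored 10x, BD 1 and BD 2, and was lower in BD 1 (-1.86, adjusted p = 0.0181). Ifng was also lower (-2.33, adjusted p = 0.0405), a call that passed in 2 of 6 alternatives with a test. It was lost with DESeq2 (adjusted p = 0.251), when low-count genes were kept in (adjusted p = 0.0687) and with BD 2 grouped with BD 1 (-1.01, adjusted p = 0.260). These were 3 of the 10 genes, beside 7545 of 17373 genes, or 43.4% (22.3% higher and 21.2% lower), so the share was below that of all genes. The share of cells that were CD3-negative lymphocytes was 0.578%, 0.519%, 0.300%, 0.212% and 0.287% over the 5 libraries. In whole libraries, fewer cells of a type and less RNA per cell cannot be told apart.

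Per lymphocyte UMI, with both classes summed, Gzmc was at 8.89 and 12.4 UMIs per 10000 in fresh 10x and at 0.408, 1.04 and 1.40 in stored 10x, BD 1 and BD 2. Ncr1 was at 3.82 and 3.29 against 1.05, 1.08 and 1.12. The fresh 10x levels were above the rest for both genes. A single cell held 48.8% of the lymphocyte Gzmc UMIs in fresh 10x 1 and 84.7% in fresh 10x 2. BD 1 was lower for Gzmc (-3.64, SE 0.35, edgeR adjusted p = 1.59e-22), Ncr1 (-2.02, adjusted p = 4.43e-08), Ifng (-2.44, adjusted p = 0.00342), Ctsw (-0.86, adjusted p = 0.0184) and Nkg7 (-0.82, adjusted p = 0.0211). It was higher for Gzmb (0.72, adjusted p = 0.0190). These were 6 of the 10 genes, beside 1850 of 7915 genes, or 23.4% (10.2% higher and 13.1% lower). DESeq2 kept only Gzmc and Ncr1 of these 6. The Gzmb call passed in 7 of 12 alternatives with a test. It was also lost with lymphoid-led cells (0.57, adjusted p = 0.183), with Cd3e required (0.56, adjusted p = 0.110) and with BD 2 grouped with BD 1 (0.51, adjusted p = 0.243). The Gzma level of BD 1 (13.4) lay between those of the 2 fresh 10x samples (14.5 and 3.99), and the difference did not pass the test (0.20, adjusted p = 0.638).

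With storage, compared in 1 stored sample against the 2 fresh 10x samples, Gzmc was lower in the whole library (-3.96, SE 0.26, edgeR adjusted p = 0.0409), a call lost with no filter on low counts (-3.92, adjusted p = 0.189). It was the only 1 of the 10 genes called, beside 25 of 17373 genes, or 0.144% (0.109% higher and 0.0345% lower). Per lymphocyte UMI Gzmc (-4.67, SE 0.40, edgeR adjusted p = 3.77e-28) and Ncr1 (-1.74, SE 0.34, edgeR adjusted p = 3.16e-05; 0.235 with DESeq2) were lower, 2 of 10 genes beside 304 of 7915, or 3.84% (2.07% higher and 1.77% lower). Gzmb stood at 15.0 UMIs per 10000 in stored lymphocytes against 13.7 and 7.86 in the fresh libraries, and did not pass the test (0.48, adjusted p = 0.452; -0.75 with Cd3e required). The storage and platform comparisons share the fresh 10x samples. Without each gene's top cell the Gzmc differences were -2.82 for BD 1 and -3.56 for the stored sample, again past the threshold. The share of lymphocyte cells that were CD3-negative differed between these libraries, and its part in the result was not tested.

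Other genes of the cytotoxic pathway were taken from a fixed list of 68 names in 7 groups, drawn up with earlier results of these data known. Of these, 43 passed the filter in the class contrast. In CD3-negative cells 7 were higher and 0 were lower at an adjusted p below 0.05, beside 1.24% higher and 3.27% lower of all genes. The median log2 difference of the 43 was 0.44, against -0.06 for all genes. Of the 17 killer lectin-like receptors, 8 were tested and 4 were higher. Klrb1b, an inhibitory receptor, had a difference of 3.21 (SE 0.40, edgeR adjusted p = 2.26e-05), Klrb1f of 1.98 (adjusted p = 0.00287) and Klrk1, which encodes the activating receptor NKG2D, of 1.91 (adjusted p = 3.69e-05). Among 9 transcription factors, 7 were tested and 2 were higher: Eomes (2.42, adjusted p = 0.00945) and Tbx21, which encodes T-bet (1.83, adjusted p = 0.00741). Both are T-box factors that direct cytotoxic programmes. Among 7 cytokine receptors, 4 were tested and Il18rap, a chain of the interleukin 18 receptor, was higher (2.75, adjusted p = 0.00139).

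No gene passed the test among the granzyme, granule release, death ligand and other killer receptor groups, of which 5 of 11, 2 of 5, 7 of 8 and 10 of 11 were tested. Their medians were 0.14, 0.13, 0.25 and 0.43. Ccl5, a chemokine stored in killer granules, was at -1.82 (edgeR adjusted p = 0.0590). In fresh 10x 1 it went the other way, at 13.6 in CD3-negative against 3.99 in CD3-positive cells. Also just short of the threshold, but higher in CD3-negative cells, were Tyrobp (0.67, adjusted p = 0.0562) and, among the lectin-like receptors, Klrc2 (1.94, adjusted p = 0.0581) and Klrc1 (1.86, adjusted p = 0.0588). The other granzymes were sparse, with Gzmd, Gzme, Gzmf and Gzmg at 25, 60, 102 and 18 UMIs in all cells and Gzmk listed at 0 in every library. The genes whose summed pattern over the 36 sums of a gated class in a library was most like that of the 10 genes were Ltb (Spearman's rho 0.809), Fam107b (0.806), Inpp4b (0.802), Traf3ip3 (0.799) and Traf1 (0.781), among 6908 genes ranked. These sums share libraries and depths, so the values are a description.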

How the data were processed

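Processing started from the gene by cell matrices that the authors deposited for 5 libraries, which hold UMI counts; all values are whole numbers, and no header names a normalisation. Cell Ranger 3.0.1 and the mm10 build are named in the submitters' processing notes, with no role given, and how the BD Rhapsody reads were counted is not given in the sources used here. Further deposited matrices that pool or subset these cells were not used. Spellings of a symbol that differ in punctuation were merged. No doublet caller was run; instead an alternative kept only CD3-positive cells led by the lymphoid panel.

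Counts were summed per library and class and tested with edgeR 4.0.16 (quasi-likelihood test, TMM scaling, low-count filter, Benjamini-Hochberg adjustment over all genes tested, threshold 0.05) in R 4.3.3. In the class and CD8 contrasts both sums come out of the same library, so the library was the block. DESeq2 1.42.0 was an alternative. Shares of cells were also computed with every cell thinned to 1000 UMIs (shallower cells left out), and intervals are 95% exact ones for counting error only. The fits were tested on simulated data. The 10 genes were named always, and of each pathway group the 3 with the largest change past the threshold. Ccl5, Tyrobp, Klrc1 and Klrc2 were named after their values were seen. The genes and lists were chosen with earlier results of these data known. Promoters are RefSeq's, gene positions GENCODE's. Alternatives were another scaling, no filter, stricter cells, other gates, no block and leaving out each library.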

Additional observations from a re-analysis of the deposited data

Results flagged for a closer look

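The class difference of Prf1 went opposite ways on the 2 platforms: in all 3 libraries on 10x its level was higher in CD3-negative than in CD3-positive cells, and in both on BD Rhapsody it was lower. The mean of the differences was 1.41 UMIs per 10000 higher on 10x. The contrast in stored 10x was close to 0, and this difference in levels was not tested. The 2 CD3-negative sums on BD Rhapsody held no Prf1 UMI among 43674 UMIs in BD 1 and 59487 in BD 2. These sums are too small to show a lower level by the differences there, -0.178 and -0.0839 UMIs per 10000. The interaction term for Prf1 in the fit over all genes gave an edgeR adjusted p of 0.728.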

How the results depend on the processing

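Counts of genes past the threshold moved by more than 1.5 times under these settings. For the class contrast (138) they were 78 with DESeq2, 275 with no filter, 16 with no replicate block, 51 with lymphoid-led CD3-positive cells, 91 with cells of 1 CD3 UMI counted as negative, 65 on BD Rhapsody alone and 81 to 139 with a library left out (81 without fresh 10x 1, 88 without stored 10x). For the platform interaction (6) they were 2 with DESeq2, 10 without each gene's top cell, 3 to 24 with a library left out (3 without fresh 10x 1, 12 without stored 10x, 24 without BD 2), and 0 with no replicate block, with lymphoid-led cells or with 1 CD3 UMI as negative. For the CD8 contrast (71) they were 259 with no filter, 5 with no replicate block, 136 with lymphoid-led cells, 150 without each gene's top cell, 39 with Cd3e required and 11 to 79 with a library left out (33 without stored 10x, 11 without BD 1). Storage gave 348 in whole libraries with DESeq2 and 0 with no filter (against 25), and in lymphocytes 32 with DESeq2 and 105 with lymphoid-led cells (against 304); the platform count in lymphocytes was 244 with DESeq2 (against 1850). The cause was not tested. Without the block, Gzmb (adjusted p = 0.118) and Gzmc (0.328) lost the class call, as did Gzmb with 1 CD3 UMI as negative (0.0594), and Gzma (0.152), Ncr1 and Nkg7 (both 0.218) the CD8 call. Signs turned for Gzma in the class contrast with Cd3e required (1.45), for Nkg7 on BD Rhapsody alone (-0.32), for Gzmc in the CD8 contrast with no block (-1.35), lymphoid-led cells (-0.057) or a library left out (-0.31 to 1.495), and for Gzma between platforms with BD 2 grouped with BD 1 (-0.25 in whole libraries, -0.61 in lymphocytes), the same with a replicate block (-0.12 and -0.89) and with Cd3e required (-0.15). Differences outside the reported calls also changed sign under at least 1 setting: in the interaction Ctsw (-0.23 to 0.23), Gzmc (-0.71 to 2.90), Klrb1c (-1.30 to 1.05) and Ncr1 (-0.42 to 0.73); between platforms Klre1 in lymphocytes (-1.36 to 0.15); with storage in whole libraries Ctsw (-0.73 to 0.037), Gzma (-2.01 to 0.65) and Gzmb (-0.53 to 1.13); and with storage in lymphocytes Gzma (up to 0.42), Gzmb (-0.75 to 0.96), Ifng (-1.21 to 0.062), Klre1 (-1.28 to 0.39) and Prf1 (-2.67 to 0.36). Fresh 10x and BD samples share only a number; with BD 2 grouped and the number as a block, 10466 genes were called, against 9884 without it, and deviations of same-numbered samples correlated at 0.263 over 11609 genes. The interaction called 1 of the 10 genes, with a negative term, with no filter (all genes: 6 higher and 2 lower of 16041). The same held without stored 10x (10 and 2 of 2843), without BD 2 (17 and 7 of 4029) and with Cd3e required (4 and 1 of 2413). Without fresh 10x 2 it called 1 with a positive term (6 and 1 of 4599). Leaving out a fresh 10x sample leaves no residual spread for the platform and storage contrasts, so those are values with no test. CD3-negative sums rest on 8 to 12 cells a library, which limits Prf1, Ifng, Klrb1c and Klre1.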
